A study of Mus musculus with 36 samples.

Results

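The genes described here are 9 receptors, ligands and signals of efferocytosis, the uptake of dying cells by phagocytes: Mertk, Axl, Tyro3, Gas6, Pros1, Anxa1, Cd47, Sirpa and Stab1. They were chosen by name, as the rows of the gene count table that carry those symbols, and they are 9 of 54532 genes in the table. RNA was measured in bone-marrow-derived macrophages (BMDMs) from adult female C57BL/6 mice, grown from marrow for 7 days with MCSF, the growth factor on which macrophages depend. The KO mice carried floxed Bmal1 alleles and LysM-Cre, a Cre recombinase driven by a promoter of myeloid cells (n = 6 libraries per treatment). The WT mice were littermates with the same floxed alleles and no Cre (n = 3 libraries per treatment). Bmal1, also called Arntl, is a core transcription factor of the circadian clock. Macrophages of each genotype were treated for 6 h with vehicle (DMSO), with 100 µM CCM, a small molecule that binds the PASB domain of BMAL1, with 100 nM LPS, a bacterial cell wall component that activates macrophages, or with LPS and CCM together. This gave 8 groups and 36 RNA-seq libraries.

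A dying cell exposes phosphatidylserine on its surface. GAS6 and protein S, the product of Pros1, bind this lipid with one end and a TAM receptor (TYRO3, AXL or MERTK) with the other, and so bridge the dying cell to the phagocyte. MERTK is the TAM receptor usually tied to tolerant, resting or resolving macrophages and AXL the one usually induced by inflammatory stimuli. STAB1 binds phosphatidylserine directly, ANXA1 is a phospholipid-binding protein that promotes the resolution of inflammation, and CD47 on a target cell engages SIRPA on the phagocyte to hold uptake back.

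The genes lie on 6 chromosomes (coordinates of GRCm38, mm10). Mertk (ENSMUSG00000014361) spans chr2:128698956-128802894, Sirpa (ENSMUSG00000037902) chr2:129592835-129632228 and Tyro3 (ENSMUSG00000027298) chr2:119797733-119818104, all on the plus strand. Axl (ENSMUSG00000002602) spans chr7:25757273-25788705, Gas6 (ENSMUSG00000031451) chr8:13465374-13494490, Anxa1 (ENSMUSG00000024659) chr19:20373428-20390944 and Stab1 (ENSMUSG00000042286) chr14:31139013-31168641, all on the minus strand. Cd47 (ENSMUSG00000055447) spans chr16:49800533-49915010 and Pros1 (ENSMUSG00000022912) chr16:62854307-62929346, both on the plus strand. The values are counts over exons of each gene. Nt5dc2, a gene on the opposite strand whose interval overlaps that of Stab1, had counts of 3.57% to 13.4% of those of Stab1, so a small part of the Stab1 count could belong to it if strand was not used in counting. The genes that overlap Mertk, Gas6 and Anxa1 had at most 1.25% of the count of their neighbour.

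The 250 bases before the start site are shown for Mertk, Axl and Anxa1, which had the largest differences with CCM in WT among the 9 genes. They were read from RefSeq (GRCm38.p6) on the strand of the gene, at chr2:128698665-128698914 for Mertk, chr7:25788734-25788983 for Axl and chr19:20390672-20390921 for Anxa1. Capitals mark a match to one of 4 motifs searched on both strands: the E-box CACGTG that BMAL1 with CLOCK is known to bind, an NF-kB-like motif GGANTTTCC, an interferon-response-like motif GAAANNGAA and an AP-1 motif TGANTCA.
Mertk: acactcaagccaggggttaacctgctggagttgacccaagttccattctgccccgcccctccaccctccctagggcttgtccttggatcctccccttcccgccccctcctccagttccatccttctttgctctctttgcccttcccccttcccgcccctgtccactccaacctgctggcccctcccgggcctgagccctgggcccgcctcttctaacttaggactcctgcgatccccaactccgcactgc
Axl: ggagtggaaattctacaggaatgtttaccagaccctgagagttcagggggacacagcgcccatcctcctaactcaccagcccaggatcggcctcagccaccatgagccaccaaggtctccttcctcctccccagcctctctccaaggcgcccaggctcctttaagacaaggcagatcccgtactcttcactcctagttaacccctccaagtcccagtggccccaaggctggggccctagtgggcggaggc
Anxa1: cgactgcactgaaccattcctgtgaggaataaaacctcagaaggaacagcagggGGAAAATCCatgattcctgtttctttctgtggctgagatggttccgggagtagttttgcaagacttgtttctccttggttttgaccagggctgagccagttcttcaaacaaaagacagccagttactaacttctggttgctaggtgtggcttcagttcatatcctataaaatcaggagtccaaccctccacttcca

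The RefSeq table held promoters for 8 of the 9 genes, with 9 windows in all since Cd47 has 2, and Sirpa was the gene without an entry. Of these 9 windows, each from 250 bases before to 50 after the start site, 1 held a motif, the NF-kB-like match of Anxa1 shown in capitals. Among all 32851 promoters in the table, 7.15% held the E-box, 1.25% the NF-kB-like motif, 8.56% the interferon-response-like motif and 7.81% the AP-1 motif. A match describes letters in the window and no more.

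Library totals ranged from 13469262 to 28288923 counts. The count of the whole Bmal1 (Arntl) gene, which includes exons outside a floxed deletion, did not separate the genotypes with vehicle (log2 fold change -0.34, SE 0.26, adjusted p = 1 by edgeR's quasi-likelihood test), and in KO replicate 2 it was at 7.76, 10.8, 9.03 and 9.33 CPM (the count of a gene scaled to the size of its library) with vehicle, CCM, LPS and LPS+CCM, against 7.52 to 12.8 CPM over the WT libraries. KO and WT below are therefore the labels of the libraries. Within each KO group, replicate 6 held the lowest Bmal1, at 2.87, 4.80, 2.02 and 3.82 CPM with vehicle, CCM, LPS and LPS+CCM. The other 5 KO libraries were at 6.40, 6.45, 6.40 and 4.52 CPM or more, in the same order. Fits without KO replicate 6 leave out the KO libraries with the lowest Bmal1. KO replicate 6 stood apart in each of the 4 treatments, with a median correlation of 0.831 to 0.905 with the other libraries of its group, against 0.953 to 0.995 in every other library. In those 4 libraries the summed level of 8 neutrophil markers was 1041 to 1107 CPM, against 382 to 1009 CPM elsewhere, and 6 or 7 of the 8 were highest of the 6 KO libraries, while Ly6g stayed at or below 0.562 CPM in every library. The sum of 6 macrophage markers there was 2977 to 4350 CPM, against 3994 to 6112 CPM elsewhere, with 3 or 4 of the 6 lowest and 1 or 2 highest in replicate 6 of each KO group. In WT the macrophage sum was 4205 to 4596 CPM with vehicle and 5356 to 5515 CPM with LPS. Of its genes Adgre1 (log2 fold change 1.49) and Fcgr1 (2.53) were called higher, while Csf1r (-0.30), Cd68 (-0.34), Itgam (-0.30) and Mrc1 (-0.83) were called lower. The part of these marker levels in the results below was not tested. Of 5 T cell markers, 4 (Cd3d, Cd3e, Cd3g and Cd8a) stayed at or below 1.86 CPM in every library, and Cd4 was at 5.20 to 32.2 CPM and was called lower with LPS (log2 fold change -0.81 in WT and -0.72 in KO). The fibroblast sum, which includes Col1a1 and Col1a2, ranged from 302 to 1660 CPM with overlap between all 8 groups.

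**Figure D1:**
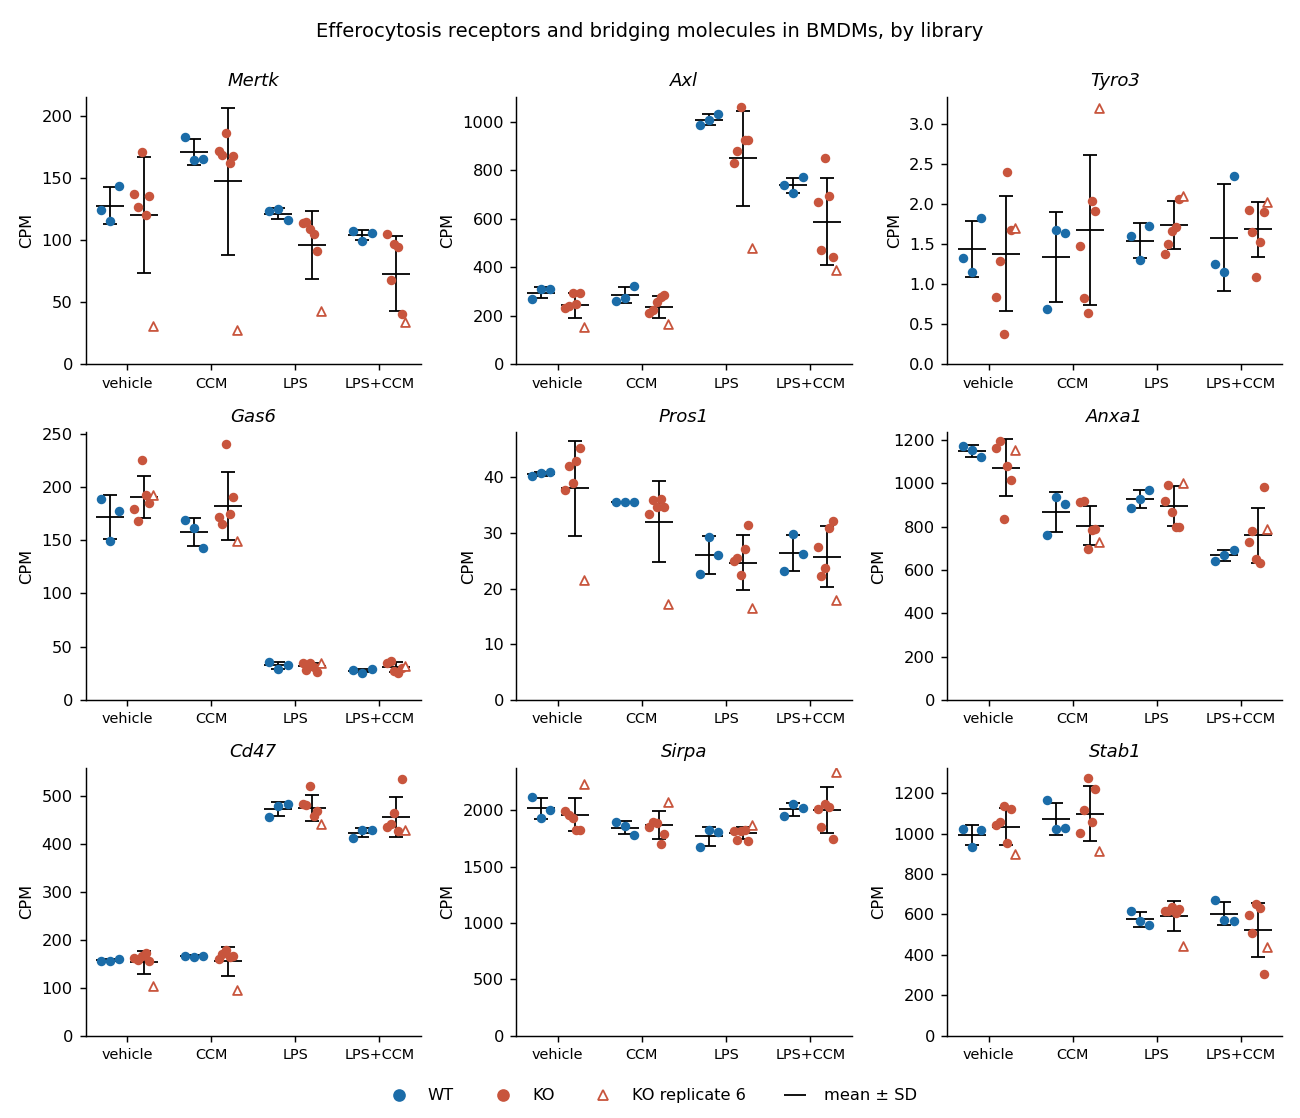
Level of each of the 9 genes in CPM (y axis) in the 4 treatments (x axis), with a point for each library, WT in blue (n = 3) and KO in red (n = 6), the mean ± SD in black, and an open triangle for KO replicate 6. Axl and Cd47 stand higher with LPS in both genotypes, Gas6 and Stab1 stand lower, and Mertk is highest with CCM alone. The triangles lie below the other KO points for Mertk, Axl, Pros1, Cd47 and Stab1 without LPS.

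Levels of different genes were compared per length, as RPKM (CPM divided by gene length in kilobases, mean ± SD). In WT macrophages with vehicle, the highest of the 9 was Anxa1 at 441 ± 10.2 RPKM (n = 3), followed by Sirpa at 411 ± 19.2, Stab1 at 96.4 ± 4.75, Gas6 at 67.4 ± 8.08, Axl at 58.6 ± 4.80, Mertk at 29.5 ± 3.38, Cd47 at 25.2 ± 0.382, Pros1 at 9.94 ± 0.0890 and Tyro3 at 0.232 ± 0.0568 RPKM. The libraries of Anxa1 and Sirpa overlapped, as did those of Gas6 and Axl, and the other neighbours in this order did not. With LPS the order changed. Axl moved to the third place at 201 ± 4.60 RPKM and Cd47 to the fourth at 75.4 ± 2.34, while Gas6 moved from the fourth to the seventh at 12.7 ± 1.30 RPKM. The RPKM of Axl was 2.0 ± 0.266 times that of Mertk in the WT libraries with vehicle and 7.17 ± 0.425 times with LPS.

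With LPS, Axl rose and its ligand Gas6 fell in both genotypes, Cd47 rose, Stab1 and Pros1 fell, and no difference in Mertk or Tyro3 passed the test. In WT, 7 of the 9 genes were called at an adjusted p of 0.05 or less, 2 higher and 5 lower. LPS changed much of the transcriptome, since 63% of the 14501 genes tested were called (30.6% higher and 32.4% lower), so a count of 7 of 9 is near the background. The median log2 fold change was -0.16 over the 9 genes and -0.05 over all genes tested. In KO, 5 of the 9 were called, 2 higher and 3 lower, against 47.1% of 13648 genes tested (22.4% higher and 24.7% lower), with medians of -0.25 and -0.05. Scaling by total counts alone moved the median of all genes to -0.47 in WT and -0.44 in KO and the split of all calls from 4441 higher and 4698 lower to 2551 and 8060 in WT, and from 3060 and 3373 to 1825 and 5708 in KO. The fold changes below use TMM factors, which centre the median near 0.

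**Figure D2:**
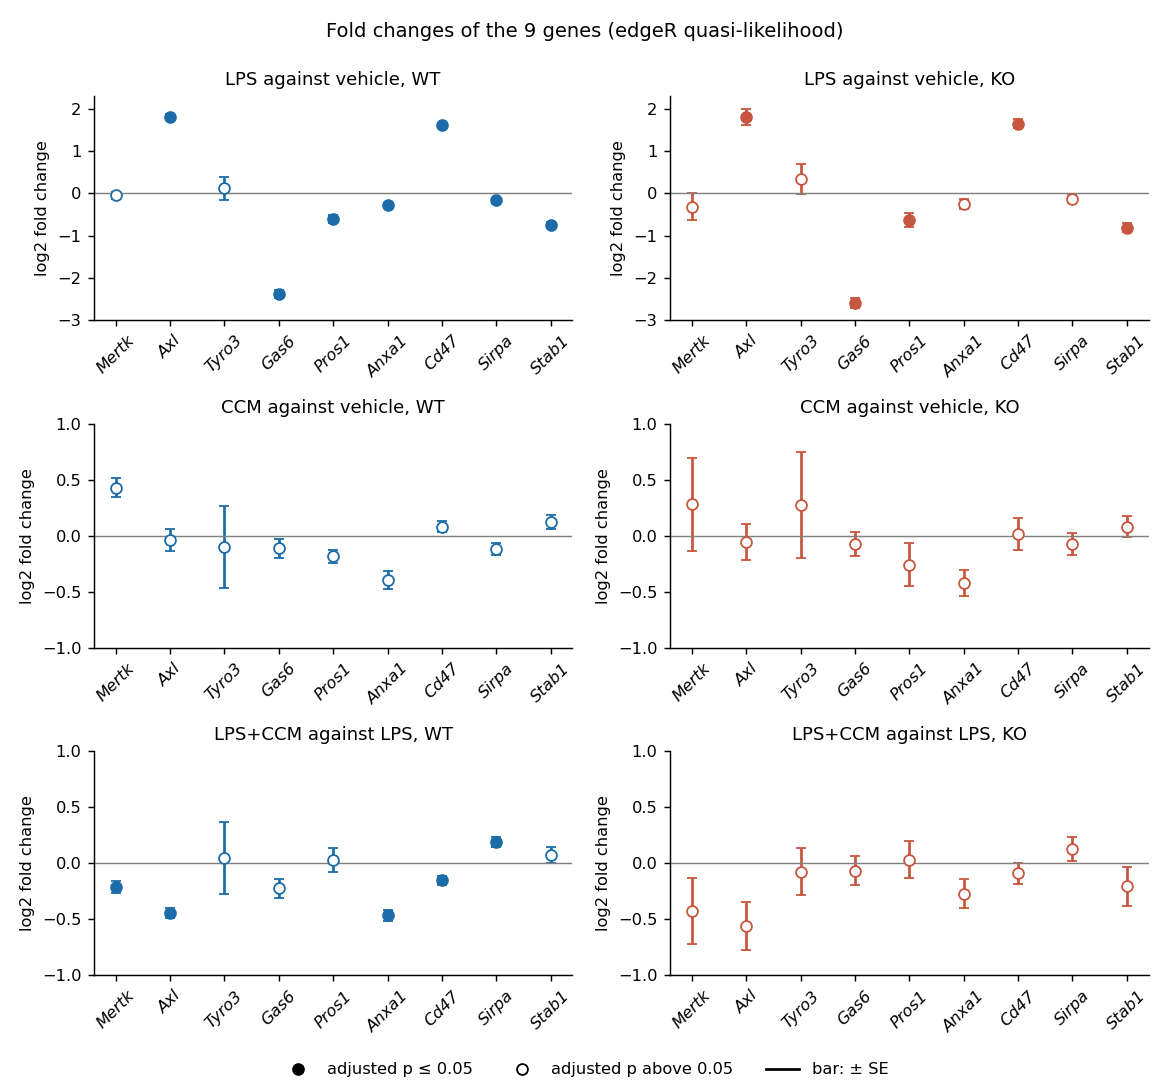
Log2 fold change (y axis) of the 9 genes (x axis) in 6 comparisons, with bars of ± SE and filled points where the adjusted p by edgeR's quasi-likelihood test was 0.05 or less. The top row has a wider y axis than the others. Filled points in the CCM rows stand in the LPS+CCM comparison of WT, where 4 genes are lower and Sirpa is higher.

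Axl, the TAM receptor usually induced by inflammatory stimuli, was at 267, 309 and 308 CPM in the WT libraries with vehicle and at 987, 1009 and 1033 CPM with LPS. Its log2 fold change was 1.80 (SE 0.08, adjusted p = 1.59e-08), which is 3.42 times the vehicle mean. In KO the lowest, median and highest were 154, 245 and 294 CPM with vehicle and 479.5, 902 and 1060 CPM with LPS, again with no overlap, and the log2 fold change was 1.80 (SE 0.18, adjusted p = 2.58e-06). Both of these lowest values were from KO replicate 6, and the other KO libraries were at 229 and 831 CPM or more. The rise differed between genotypes by 0.02 on the log2 scale (SE 0.27, adjusted p = 1).

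Mertk, the TAM receptor tied to resting macrophages, was at 124, 116 and 144 CPM with vehicle and at 123, 125 and 116 CPM with LPS in WT, and the groups overlapped. Its log2 fold change was -0.05 (SE 0.08, adjusted p = 0.63). Scaled by total counts it was -0.46 (adjusted p = 0.000579), close to the shift of all genes under that scaling. In KO, Mertk ranged from 30.9 to 171 CPM with vehicle (median 131) and from 43.1 to 115 CPM with LPS (median 107), and the log2 fold change of -0.32 (SE 0.32) was not called (adjusted p = 0.455). KO replicate 6 gave the lowest value in both groups. Without it, the 5 other KO libraries fell from 120 to 171 CPM to 91.3 to 115 CPM, with no overlap and a log2 fold change of -0.37 (adjusted p = 0.00372). Tyro3 was near the limit of detection, at 0.371 to 3.20 CPM and 8 to 75 counts over the 36 libraries, and its log2 fold changes with LPS were 0.12 in WT (SE 0.28, adjusted p = 0.731) and 0.34 in KO (SE 0.35, adjusted p = 0.472).

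Gas6 showed the largest change of the 9 genes with LPS. The WT libraries were at 189, 149 and 177 CPM with vehicle and at 35.4, 28.8 and 32.8 CPM with LPS, so the mean with LPS was 18.8% of that with vehicle (log2 fold change -2.38, SE 0.10, adjusted p = 1.64e-08). In KO, Gas6 ranged from 168 to 226 CPM with vehicle (median 189) and from 26.4 to 34.4 CPM with LPS (median 32.5), a log2 fold change of -2.59 (SE 0.12, adjusted p = 1.24e-09). KO replicate 6 lay inside these ranges. KO and WT libraries with LPS thus held low Gas6 together with high Axl.

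Pros1, the gene of protein S, fell less. It was at 40.2, 40.8 and 40.9 CPM with vehicle and at 22.6, 29.3 and 26.1 CPM with LPS in WT (log2 fold change -0.61, SE 0.09, adjusted p = 0.000195). In KO it ranged from 21.5 to 45.3 CPM (median 40.5) and from 16.5 to 31.5 CPM (median 25.2), with a log2 fold change of -0.62 (SE 0.17, adjusted p = 0.0078). All 6 KO replicate numbers were lower with LPS, and the groups overlapped through replicate 6, whose vehicle library held the 21.5 CPM. The Gas6 to Pros1 ratio of RPKM in WT went from 6.78 ± 0.852 with vehicle to 2.04 ± 0.471 with LPS.

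Cd47, the don't-eat-me signal, was at 156, 157 and 161 CPM in WT with vehicle and at 456, 479 and 484 CPM with LPS, 3.0 times the vehicle mean (log2 fold change 1.61, SE 0.05, adjusted p = 3.14e-09). In KO it ranged from 104 to 172 CPM (median 159.8) with vehicle and from 441 to 521 CPM (median 474) with LPS (log2 fold change 1.64, SE 0.11, adjusted p = 4.05e-08). The groups did not overlap in either genotype. Its receptor Sirpa was close to level when TMM factors were used. The WT libraries were at 2120, 1934 and 1999 CPM with vehicle and 1674, 1827 and 1807 CPM with LPS, and the log2 fold change of -0.16 (SE 0.06) had an adjusted p of 0.0393 that rose above 0.05 without any of the 6 libraries in turn (0.0654 to 0.146) and when replicate was fitted as a block (0.0799). In KO the log2 fold change of Sirpa was -0.12 (SE 0.10, adjusted p = 0.355, and 0.0438 with the block), and the library with LPS was lower at each of the 6 replicate numbers. Over the alternative settings the log2 fold change of Sirpa ranged from -0.57 to -0.12 in WT and from -0.50 to -0.09 in KO. The Sirpa to Cd47 ratio of RPKM in WT was 16.3 ± 0.857 with vehicle and 4.78 ± 0.0943 with LPS.

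Stab1, a phosphatidylserine receptor, was at 1022, 935 and 1017 CPM with vehicle and 618, 566 and 546 CPM with LPS in WT (log2 fold change -0.75, SE 0.07, adjusted p = 3.98e-06). In KO it fell from 898 to 1135 CPM (median 1050.0) to 442 to 638 CPM (median 616), with a log2 fold change of -0.81 (SE 0.10, adjusted p = 1.55e-05). Neither genotype had overlapping groups. Anxa1 fell to a smaller extent in WT, from 1174, 1154 and 1122 CPM to 885, 926 and 969 CPM (log2 fold change -0.28, SE 0.06, adjusted p = 0.00153, or 0.131 in the fit of all 36 libraries). In KO the Anxa1 groups overlapped (834 to 1194 CPM and 796 to 1002 CPM), and the log2 fold change of -0.25 (SE 0.12) had an adjusted p of 0.104, which was 0.00178 in the blocked fit and 0.0174 without KO replicate 6. These are bulk samples, so fewer cells that express a gene and less RNA per cell cannot be told apart.

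With CCM alone, compared with vehicle, no difference in the 9 genes passed the test, and the largest were in Mertk and Anxa1. In WT, 0 of the 9 were called, as were 8 of 14024 genes tested (0.057%), and 4 of the 9 had an unadjusted p below 0.05. DESeq2 called 2 of the 9, Mertk and Anxa1. Mertk was at 183, 164 and 165 CPM with CCM, above the 116 to 144 CPM of the vehicle libraries, and its log2 fold change was 0.43 (SE 0.08, adjusted p = 0.121). That p was 0.000151 by DESeq2 and 0.0435 without WT vehicle replicate 3, the highest of the vehicle libraries. Anxa1 was at 762, 937 and 906 CPM, below each vehicle library, with a log2 fold change of -0.39 (SE 0.08, adjusted p = 0.121, and 3.6e-05 by DESeq2). In WT the sum of the neutrophil markers was 572 to 631 CPM with vehicle and 382 to 606 CPM with CCM. That of the fibroblast markers was 492 to 1382 CPM and 327 to 792 CPM, in the same order. The groups overlapped in both sums, and the part of these marker levels in the values was not tested. Axl and Gas6 differed little, with log2 fold changes of -0.04 (SE 0.10, adjusted p = 0.919) and -0.11 (SE 0.09, adjusted p = 0.694). Pros1 was at 35.5, 35.5 and 35.6 CPM, below the vehicle libraries, with a log2 fold change of -0.18 (SE 0.06, adjusted p = 0.326).

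In KO macrophages, CCM alone gave values of the same sign for these 3 genes. Of the 9, 0 were called, against 0% of 13799 genes tested, of which 333 had an unadjusted p below 0.05, and DESeq2 called 24 genes, none of the 9 among them. Mertk was at 172, 168, 187, 162, 168 and 27.6 CPM, the last from KO replicate 6, against 137, 127, 171, 120.0, 136 and 30.9 CPM with vehicle. The log2 fold change was 0.28 (SE 0.42, adjusted p = 1), and 0.30 (SE 0.05, adjusted p = 0.00645) in a blocked fit that left out replicate 6. Anxa1 was lower with CCM at each of the 6 replicate numbers (log2 fold change -0.42, SE 0.12, adjusted p = 1, and 0.000841 with the block), and so was Pros1 (log2 fold change -0.26, SE 0.19, adjusted p = 1, and 0.021 with the block). The blocked fit assumes that replicate numbers pair the samples, and it called 429 genes of the whole table. In deviations from the group means, libraries of the same number correlated at 0.435 to 0.923 here. Those of different numbers had a median correlation of 0.356, so these values do not by themselves show pairing.

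With CCM under LPS, Axl, Anxa1, Mertk and Cd47 fell and Sirpa rose in WT macrophages. These 5 of 9 genes were called, 1 higher and 4 lower, against 11.9% of 13579 genes tested (4.15% higher and 7.78% lower). Over all genes, 1621 were called, and 893 without WT LPS+CCM replicate 2 or 958 without WT LPS replicate 2. The median log2 fold change was -0.15 over the 9 genes and 0.01 over all genes. Anxa1, Axl, Cd47 and Mertk are also in a panel of phagocytosis genes that the study turned to after analysing these samples, so their directions are not independent evidence. Among markers, S100a9 of neutrophils (-0.28, adjusted p = 0.0292) and Fcgr1 of macrophages (-0.31, adjusted p = 0.0338) were also lower. Csf1r of macrophages was higher (0.27, adjusted p = 0.00216). The other neutrophil markers tested were not called, with Elane (0.25) and Mpo (0.08) above 0 and S100a8, Camp and Ngp below 0. The neutrophil sum was 492 to 535 CPM with LPS and 415 to 496 CPM with LPS+CCM. The part of these markers in the result was not tested. The vehicle and LPS libraries serve as references in several comparisons, so the fold changes with CCM and with LPS are not independent of each other.

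Axl was at 987, 1009 and 1033 CPM with LPS and at 738, 708 and 771 CPM with LPS+CCM in WT. The groups did not overlap, and the log2 fold change of -0.44 (SE 0.05, adjusted p = 0.000182) left the mean at 73.2% of the LPS value and above the vehicle libraries. Anxa1 was at 641, 671 and 692 CPM with LPS+CCM, 72.1% of the LPS mean (log2 fold change -0.46, SE 0.05, adjusted p = 0.000182). Both calls were kept in each of the 6 fits that left out 1 library, with adjusted p of at most 0.0018 for Axl and 0.0022 for Anxa1. In the fit of all 36 libraries together, which estimates 1 spread from WT and KO, 0 of the 9 genes were called in this comparison.

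The other 3 changes were smaller. Mertk was at 107, 99.5 and 106 CPM with LPS+CCM, below each of the LPS libraries (log2 fold change -0.21, SE 0.05, adjusted p = 0.0262). Cd47 was at 413, 430.0 and 428 CPM, 89.6% of the LPS mean (log2 fold change -0.15, SE 0.04, adjusted p = 0.0419). Sirpa was at 1949, 2055 and 2019 CPM, 114% of the LPS mean and near its vehicle level (log2 fold change 0.19, SE 0.05, adjusted p = 0.0216). Leaving out 1 library ended the call of Mertk in 4 of 6 cases (LPS replicates 1 and 2, LPS+CCM replicates 2 and 3), that of Sirpa in the same 4, and that of Cd47 in all but LPS replicate 1, with adjusted p up to 0.114, 0.0927 and 0.142. Scaled by total counts, the log2 fold changes were -0.13 for Mertk (adjusted p = 0.107) and -0.07 for Cd47 (adjusted p = 0.286), while the split of all calls turned from 564 higher and 1057 lower to 1539 and 733.

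Gas6, already low under LPS, was at 27.8, 25.6 and 29.2 CPM with LPS+CCM. Its log2 fold change was -0.22 (SE 0.09, adjusted p = 0.137, or 0.0192 in the blocked fit). The WT numbers were taken to pair these samples. Pros1 and Stab1 had log2 fold changes of 0.03 (SE 0.11, adjusted p = 0.91) and 0.07 (SE 0.07, adjusted p = 0.592). That of Tyro3 was 0.05 (SE 0.32, adjusted p = 0.95).

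In KO macrophages under LPS, 0 of the 9 genes were called with CCM, against 15 of 13386 genes tested (0.112%) and 170 genes without KO replicate 6, and 1 of the 9, Axl, had an unadjusted p below 0.05. DESeq2 also called 0 of the 9. Axl was at 831, 880.0, 1060, 924, 927 and 479.5 CPM with LPS and at 668, 472, 852, 695, 444 and 389.7 CPM with LPS+CCM. The mean with CCM was 69.0% of that without, with a wide spread (log2 fold change -0.56, SE 0.22, adjusted p = 0.484). Mertk was at 114, 115, 109, 105, 91.3 and 43.1 CPM with LPS and at 105, 68.2, 97.0, 94.8, 40.2 and 33.7 CPM with LPS+CCM (log2 fold change -0.42, SE 0.30, adjusted p = 0.808). KO LPS+CCM replicate 5 held low Mertk, low Axl and the lowest Stab1 (305 CPM) together with the highest Anxa1 (982 CPM) and Cd47 (536 CPM) of its group, and it had the lowest correlation with its group after the replicate 6 libraries (0.953). Without KO replicate 5, the log2 fold changes were -0.47 for Axl (adjusted p = 0.999), -0.32 for Mertk (adjusted p = 0.999) and -0.39 for Anxa1 (adjusted p = 0.55), against -0.27 for Anxa1 with it (SE 0.13, adjusted p = 0.653).

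Whether the effect of CCM under LPS differed by genotype was tested as an interaction. None of the 9 genes was called (0% of 14546 genes tested, 72 with an unadjusted p below 0.05, and 0 of the 9 by DESeq2). The difference was -0.20 for Mertk (SE 0.44, adjusted p = 1), -0.10 for Axl (SE 0.31, adjusted p = 1) and 0.21 for Anxa1 (SE 0.19, adjusted p = 1) on the log2 scale. For Mertk this error was larger than the change with CCM in WT (-0.21). For Axl and Anxa1 it was less than that change (-0.44 and -0.46). With errors of this size the test could miss a full loss of the effect in KO for any of the 3 genes. The differences for Mertk and Axl were negative, which means a larger fall with CCM in KO than in WT. That for Anxa1 was positive, which means a smaller fall. The interaction of genotype with LPS likewise called 0 of the 9 genes and 0% of 15093 genes tested (112 with an unadjusted p below 0.05, and 0 of the 9 by DESeq2).

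The difference in Mertk with CCM had opposite signs without and with LPS. In WT, the CCM libraries lay above the vehicle libraries and the LPS+CCM libraries lay below the LPS libraries. The test of the difference between these effects gave -0.65 on the log2 scale (SE 0.11, adjusted p = 0.00663), with 2.09% of 14747 genes called, and it was called in each of the 12 fits that left out 1 library (adjusted p 0.00304 to 0.0278). It was also called with RLE size factors, with total counts, by DESeq2 and with no filter, and not in the fit of all 36 libraries, where the value was -0.66 (adjusted p = 1). Sirpa moved the other way. Its libraries with CCM alone were at 1896, 1864 and 1780 CPM, below the vehicle libraries, while the LPS+CCM libraries lay above those with LPS, and the difference of 0.29 (SE 0.07) had an adjusted p of 0.0472 that rose to between 0.0631 and 0.139 without any of the 12 libraries in turn. The values for Axl and Cd47 were -0.42 (SE 0.11, adjusted p = 0.0821) and -0.25 (SE 0.06, adjusted p = 0.0563). Anxa1, in contrast to Mertk, had a value of -0.08 (SE 0.09, adjusted p = 0.767) and stood lower with CCM in both states.

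**Figure D3:**
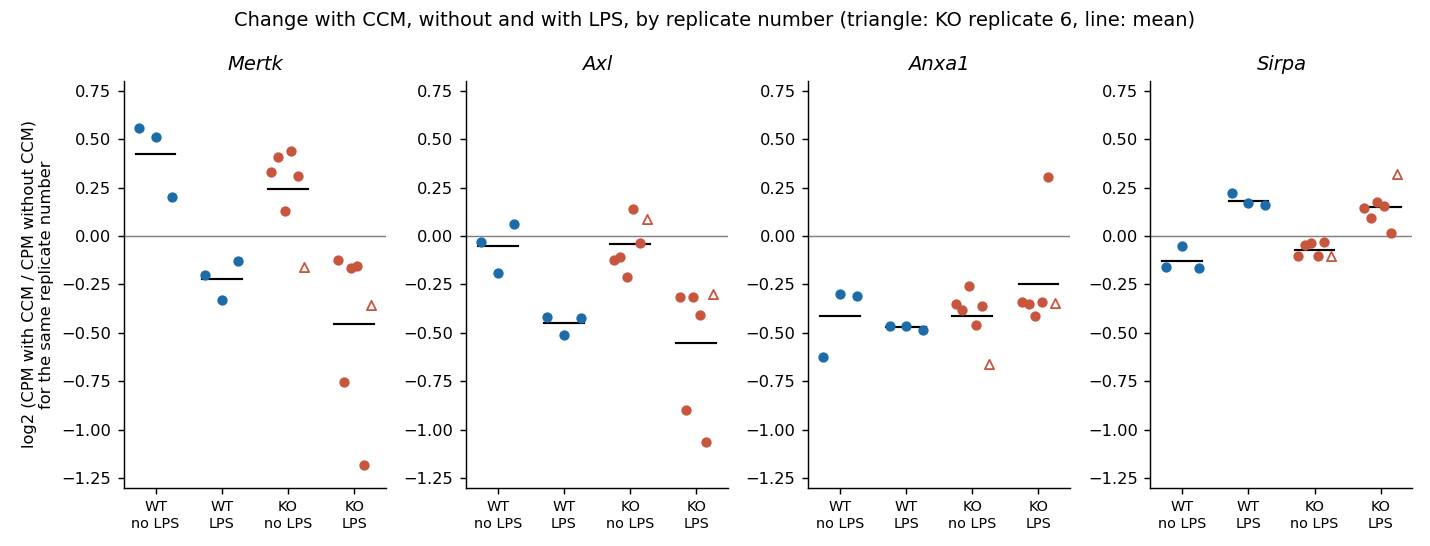
Log2 ratio of the CPM with CCM to the CPM without CCM in libraries of the same replicate number (y axis), without and with LPS in WT (blue, 3 numbers) and KO (red, 6 numbers), with a line at the mean and an open triangle for KO replicate 6. By the rule used here, equal numbers did not pair the samples for CCM without LPS in WT and for CCM with LPS in KO. For CCM without LPS in KO the rule was met, but libraries of different numbers also had a median correlation of 0.356. Mertk lies above 0 without LPS and below 0 with LPS in each WT pair and in 5 of 6 KO pairs, with replicate 6 below 0 in both, and Anxa1 lies below 0 in both states except in KO replicate 5 with LPS.

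In KO, the same difference for Mertk was -0.69 (SE 0.53, adjusted p = 1), a comparison added after the data had been seen, in which 1 gene of the whole table was called (0.00685% of 14588 genes). Without replicate 6 it was -0.71 (SE 0.24, adjusted p = 0.269). For Sirpa it was 0.22 (SE 0.14, adjusted p = 1). Whether the difference itself differed between the genotypes was not tested.

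No difference between KO and WT in the 9 genes passed the threshold. With vehicle, 0 of the 9 genes and 0% of 14385 genes tested were called between KO and WT (118 with an unadjusted p below 0.05, none of them among the 9, and 1 gene of the table by DESeq2). Under LPS, 0 of the 9 and 0% of 13794 genes were called (105 with an unadjusted p below 0.05, again none of the 9, and 1 gene of the table by DESeq2). The largest values under LPS were in Mertk (-0.32, SE 0.25, adjusted p = 0.986) and Axl (-0.23, SE 0.19, adjusted p = 0.986). The highest KO library of Mertk with LPS (115 CPM) lay below the lowest WT library (116 CPM), and without KO LPS replicate 6 the log2 fold change was -0.17 (SE 0.07, adjusted p = 1). With vehicle, the lowest of the 9 relative to WT was Axl (-0.24, SE 0.18, adjusted p = 1) and Gas6 the highest (0.20, SE 0.12, adjusted p = 1).

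Other genes of the pathway were taken from a list of 52, in 8 groups. With LPS in WT, 43 of the 49 that were tested were called, 15 higher and 28 lower, against 63% of all genes tested (30.6% higher and 32.4% lower), and the median log2 fold change was -0.58, against -0.05 over all genes. Scaled by total counts, 13 were higher and 33 lower. In KO, 36 of 50 were called, 13 higher and 23 lower, against 47.1% of all genes, with a median of -0.57, and without KO replicate 6 there were 46, 16 higher and 30 lower. The other phosphatidylserine receptors fell in 5 of 6 cases in each genotype. The sixth, Timd4, a gene of low level, rose from 0.433 ± 0.286 to 2.83 ± 1.07 CPM in WT and from 0.329 ± 0.189 to 2.29 ± 0.590 CPM in KO. Among those that fell were Cd300a at -3.02 (SE 0.08, adjusted p = 3.73e-10) and Cd300lb at -2.33 (SE 0.11, adjusted p = 3.7e-08) in WT. Of the other bridging and eat-me molecules, 6 of 8 fell in WT and none rose. In KO 1 of these 8, Lgals3, was called, and without KO replicate 6 all 8 were, 7 lower and Thbs1 higher. The test of genotype by LPS called none of the 8.

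In the other groups of the list, genes moved both ways. Of the find-me signal receptors, 2 rose and 4 fell in each genotype, and Fpr2, a formyl peptide receptor that also binds ANXA1, had the largest change, from 2.87 ± 0.240 to 431 ± 7.55 CPM in WT (log2 fold change 7.27, SE 0.08, adjusted p = 8.31e-12). The scavenger arm held Cd14, an LPS co-receptor that also binds apoptotic cells, at 2.86 (SE 0.09, adjusted p = 2.2e-09). Of the engulfment machinery, 4 of 6 genes fell and 2 rose in WT. Among genes of receptor shedding, 2 of 3 rose, Adam17, which encodes the protease known to cleave MERTK, among them. Rhbdf2, a partner of ADAM17, was at 2.46 (SE 0.06, adjusted p = 2.43e-10). Of the nuclear receptors and cholesterol efflux genes, Pparg, a lipid-sensing receptor, fell the most, from 45.8 ± 1.89 to 2.76 ± 0.512 CPM in WT (log2 fold change -4.01, SE 0.12, adjusted p = 9.57e-10). Among listed genes with a mean of at least 1 log2 CPM, the same 6 genes had the largest changes in KO, with log2 fold changes of 6.82 for Fpr2, 2.93 for Cd14, 2.48 for Rhbdf2, -3.72 for Pparg, -3.02 for Cd300a and -2.42 for Cd300lb.

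**Figure D4:**
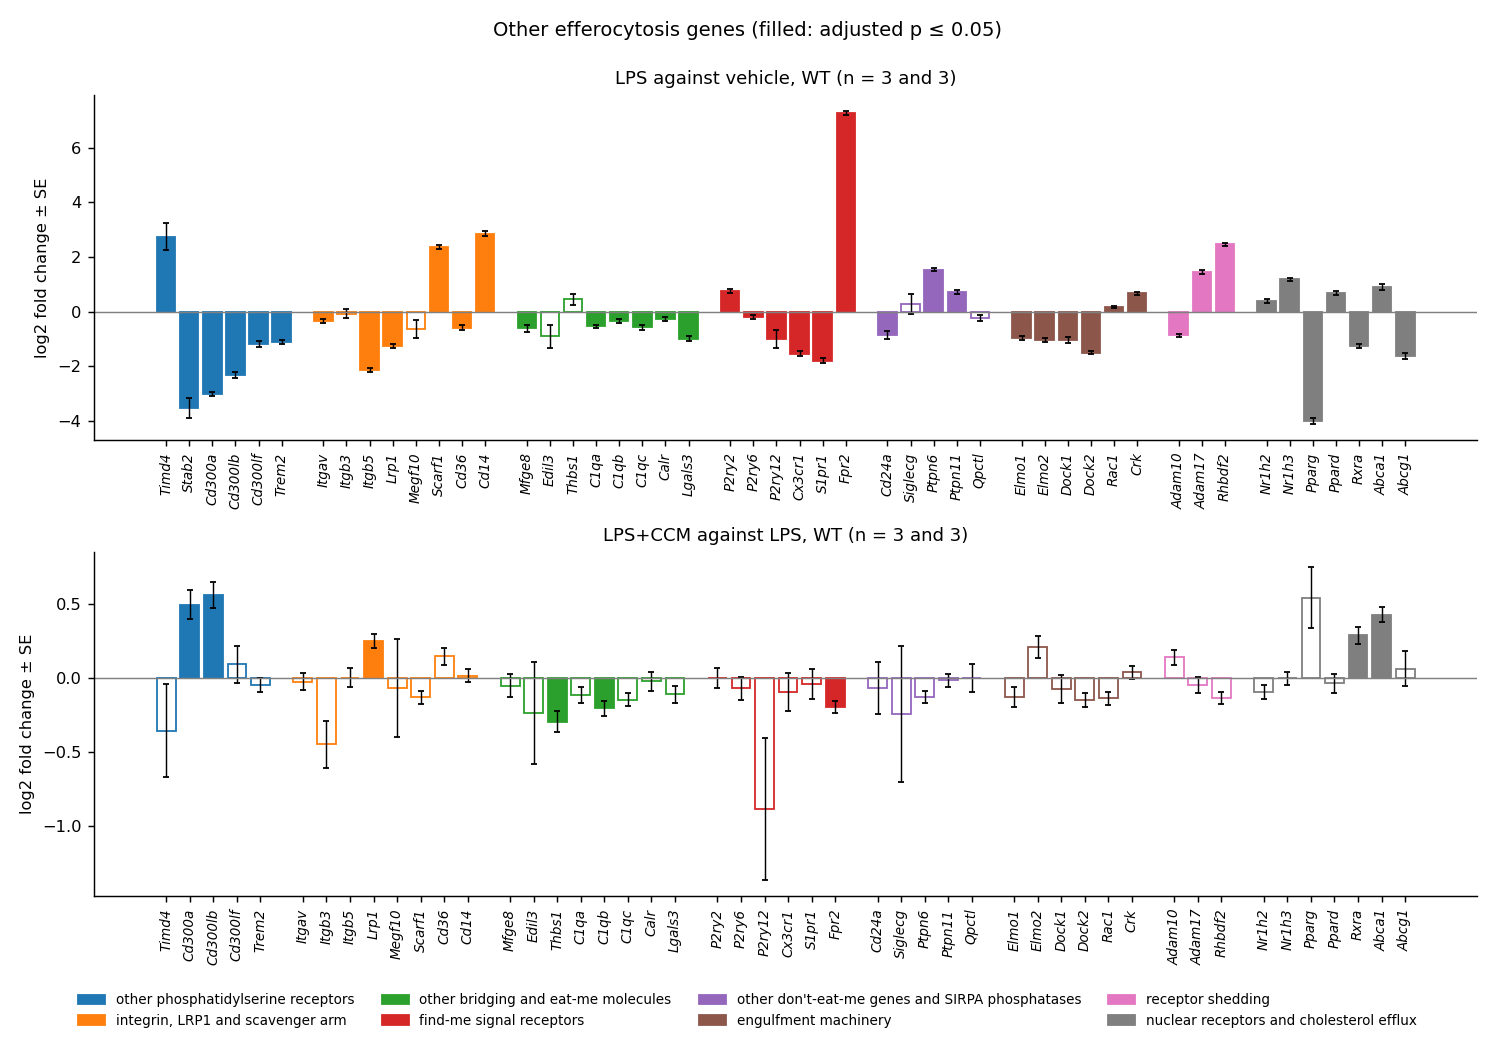
Log2 fold change ± SE (y axis) of the other efferocytosis genes that were tested (x axis, coloured by group), with LPS in WT above and with CCM under LPS in WT below, filled where the adjusted p was 0.05 or less. The upper panel holds 28 filled bars below 0 and 15 above, with Fpr2 at 7.27 and Pparg at -4.01, and the lower panel, on a narrower axis, holds 8 filled bars.

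With CCM under LPS in WT, 8 of the 48 listed genes tested were called, 5 higher and 3 lower, against 11.9% of all genes tested, with a median log2 fold change of -0.05. Cd300lb (0.56, SE 0.09, adjusted p = 0.00288) and Cd300a (0.50, SE 0.10, adjusted p = 0.00918), both lowered by LPS, were higher with CCM, as was the cholesterol exporter Abca1 (0.43, SE 0.05, adjusted p = 0.000337). Thbs1 (-0.29, SE 0.07, adjusted p = 0.0202), C1qb (-0.20, SE 0.05, adjusted p = 0.0249) and Fpr2 (-0.19, SE 0.04, adjusted p = 0.0131) were lower. Scaled by total counts, 8 were called higher and none lower. With the replicate number as a block 21 were called, 9 higher and 12 lower, and without WT LPS+CCM replicate 2 there were 4. With CCM alone, 1 of 48 was called in WT, the cholesterol exporter Abcg1 (0.56, SE 0.07, adjusted p = 0.035), and 0 of 49 in KO, where the block called 8. The call of Abcg1 was lost without any of 5 libraries (WT vehicle replicates 1 and 2 and each CCM library). In the test of LPS by CCM in WT, Pparg was called (0.87, SE 0.16, adjusted p = 0.015), a call lost without WT LPS replicate 2, LPS+CCM replicate 2 or LPS+CCM replicate 3 (0.0513 to 0.0575) and in the fit of all libraries (1), and in the comparisons of genotype none of the list was.

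The genes whose log2 CPM followed each member most closely over the 36 libraries were Slc6a6 and Cpt1a for Mertk (Pearson r of 0.971 and 0.965), Helz2 and Gm5431 for Axl (0.981 and 0.979), Rcbtb2 and Adgre5 for Gas6 (0.991 and 0.991), Smc2 and Prc1 for Pros1 (0.953 and 0.950), Lpcat2 and Tmem243 for Cd47 (0.993 and 0.993) and Tbc1d5 and Nbeal2 for Stab1 (0.979 and 0.973). Anxa1 and Sirpa had no gene as close, with Lmo2 and Rhoh at 0.776 and 0.776 for Anxa1 and Galnt6 and Rtn4ip1 at 0.762 and 0.741 for Sirpa. The values are over 11179 genes, and libraries of the same treatment are not independent points. The 36 libraries include those of KO replicate 6, where Mertk was at 27.6 to 43.1 CPM, and libraries with and without LPS. The part of that replicate and of LPS in these correlations was not tested.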

How the data were processed

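RNA-seq was examined for 36 libraries of BMDMs, 3 WT and 6 KO in each of 4 treatments. The values are raw counts of read pairs per gene, deposited by the authors as whole numbers. Per the study's methods, RNA was selected with poly(T) beads and sequenced as paired ends. The submitters' processing notes name fastp, HISAT2 2.0.5, featureCounts 1.5.0-p3 and mm10. Whether the counting used strand is not given in the sources used here. Of the count columns, 36 entered the fits and 0 did not.

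Comparisons were tested with edgeR 4.0.16 in R 4.3.3 (filterByExpr, TMM, estimateDisp, glmQLFit, glmQLFTest), each fitted on its own groups, two-sided, with Benjamini-Hochberg adjustment over all genes tested and a threshold of 0.05. SE is the log2 fold change divided by the square root of F. CPM use TMM factors over the 36 libraries, and RPKM divide CPM by the deposited gene length. Correlations used log2 CPM with a prior count of 2. The script was tested on simulated data. Alternatives were RLE size factors, total counts, DESeq2 1.42.0, no filter on low counts, 1 fit of all libraries, the replicate number as a block, and leaving out replicates.

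The members and gene lists were chosen with earlier results of these data known. The rule names all 9 members, up to 3 higher and 3 lower called genes of the pathway list per comparison with the largest fold change and a mean of at least 1 log2 CPM, the 2 genes most correlated with each member, and Bmal1. Adam17, Timd4 and the cell type markers were named after their values were seen. The test of LPS by CCM in KO and the fits with the block and without KO replicate 6 were added after seeing the data. Replicate numbers were taken to pair samples where every same-numbered pair of libraries correlated above 0.1 in its deviations from the group means. This held for LPS in WT (0.114 to 0.224) and in KO (0.345 to 0.907), for CCM alone in KO (0.435 to 0.923), for CCM under LPS in WT (0.210 to 0.451) and for genotype by LPS, and not for the others. Libraries of different numbers had a median correlation of 0.285 for LPS in KO and 0.356 for CCM alone in KO, also above 0.1. For LPS in WT and CCM under LPS in WT that median was -0.101 and -0.189. Passing the rule therefore does not show that the numbers pair the KO samples. The labels do not say which samples share an animal, so p-values measure the spread between these samples. No pair of replicates agreed within counting noise (lowest chi-square per degree of freedom 4.34).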

Additional observations from a re-analysis of the deposited data

Results flagged for a closer look

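In KO replicate 6, 8 values lay far below the other 5 KO libraries of their group: Mertk at 30.9 CPM with vehicle, 27.6 CPM with CCM and 43.1 CPM with LPS, Pros1 at 21.5 CPM with vehicle and 17.2 CPM with CCM, Cd47 at 104 CPM with vehicle and 94.96 CPM with CCM, and Stab1 at 442 CPM with LPS. The other value of this kind was Cd47 at 536 CPM in KO LPS+CCM replicate 5, above its group. These are 9 values among 36 groups of 6 libraries examined by Dixon's criterion, and chance marks about 1 in 20 independent groups. The same libraries enter the groups of every gene, so these groups are not independent and the flags cannot be set against that share.

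In WT, the change with CCM differed between macrophages without and with LPS for Mertk (-0.65 on the log2 scale, adjusted p = 0.00663 by edgeR) and for Sirpa (0.29, adjusted p = 0.0472).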

How the results depend on the processing

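Of 1494 values of the 9 genes under alternatives, 1417 kept their side of the threshold, 47 lost the call, 30 gained it and 0 reversed. In 69 the sign differed with no call in either fit. Values not called in the main fit have no call to lose, so the 1417 do not measure how stable the calls were. For CCM under LPS in WT, 13 calls were lost on leaving out a library and 8 under the other settings. For CCM alone in WT, where 0 genes were called, DESeq2, no filter on low counts and the replicate block each called 2, and leaving out a library called 0 to 1. For CCM alone in KO the replicate block called 2 in place of 0, with replicate 6 also left out 3, and leaving out a replicate 0 to 1. For CCM under LPS in WT, total counts called 3 in place of 5, the fit of all 36 libraries 0, and leaving out a library 2 to 4. For CCM under LPS in KO the replicate block called 1 (Axl) in place of 0. For LPS by CCM in WT, DESeq2 and the replicate block each called 4 in place of 2, the fit of all libraries 0, and leaving out a library 1. The cause was not tested. In comparisons taken as paired the block changed no other call of the 9 genes than those given beside the results.

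Counts over all genes moved by more than 1.5 times in some fits. The fit of all libraries called 5644 genes for LPS in WT (main 9139), 0 for CCM alone in WT (main 8), 14 for CCM alone in KO (main 0), 17 for CCM under LPS in WT (main 1621), 285 in KO (main 15) and 0 for LPS by CCM in WT (main 308). The replicate block called 9774 for LPS in KO (main 6433), 255 and 429 for CCM alone in WT and KO, 3220 and 777 for CCM under LPS in WT and KO, and 548 for LPS by CCM in WT. DESeq2 called 247 and 24 for CCM alone in WT and KO, 180 for CCM under LPS in KO and 707 for LPS by CCM in WT. With no filter, CCM alone in WT gave 377 and LPS by CCM in WT 721. Without KO replicate 6, CCM alone in KO gave 141. Total counts moved 40 of 72 group levels by more than 1 SD.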
